A study of Homo sapiens with 6 samples.

Results

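The genes that carry a cell through mitosis were followed in DU145 and 769-P cells after knockdown of SPOP. A fixed list of 45 gene symbols was looked up in the expression tables, and 44 of them had a value there, each listed once, out of 24551 gene symbols in all. This list and the gene lists set beside it were chosen with earlier results of these data known. BUB1B, a kinase of the spindle checkpoint, was not analysed here. All 44 genes passed the filter used for the tests, a mean of at least 1 FPKM (fragment counts corrected for transcript length and for library size) over the libraries, which 11865 genes passed. RNA-Seq had been carried out on 6 libraries of polyadenylated RNA. DU145 cells derive from prostate cancer and 769-P cells from renal cell adenocarcinoma. Each line gave 1 library after transfection of a control siRNA (NC), 1 after SPOP siRNA 1 and 1 after SPOP siRNA 2. The siRNAs act transiently and leave the SPOP gene in place. The time from transfection to RNA extraction was not given in the sources used here.

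Entry into mitosis is driven by CDK1 bound to cyclin A2 or B, and by the kinases PLK1 and AURKA. The spindle checkpoint then holds back CDC20 and the anaphase promoting complex until every kinetochore is attached to microtubules, after which separase cuts the chromatids apart and the spindle midzone directs cytokinesis. The transcripts of these genes are made mainly in G2 and M phase, and many of their promoters carry CCAAT boxes and a cell cycle genes homology region (CHR) bound by the DREAM and MuvB complexes. In bulk samples such as these, fewer cells in mitosis and less RNA per mitotic cell cannot be told apart.

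The targeted gene was checked first. In the order control, siRNA 1 and siRNA 2, SPOP had 16.1, 2.77 and 2.96 FPKM in DU145 and 11.6, 1.53 and 1.39 FPKM in 769-P, and values below are listed in this order. The libraries were not alike in their low values. Of 366 olfactory receptor genes, which such cells do not normally transcribe, the DU145 control had values for 287 and 769-P siRNA 2 for 237, with means of 0.345 and 0.227 FPKM, and the remaining 4 libraries had values for 3 to 5. Depth relative to the 769-P control, read from the steps between low values, was 0.680 to 1.41, and the DU145 control was 1.17 against 0.692 and 0.680 for the siRNA libraries of that line. From the same steps a member was estimated to rest on a median of 130 fragments in DU145 siRNA 1, the lowest of the libraries, and of 359 in the DU145 control, the highest. Counting error alone gave a median standard error of 0.11 to 0.15 on the log2 change of a member and a highest one of 0.41, for CDC25C in 769-P. These figures are estimates, since the transcript that each FPKM refers to is not known, and they cover counting error only. In DU145 4 of 6 prostate luminal markers were below 1 FPKM in every library, among them KLK2 and KLK3. In 769-P the renal genes CA9 and LRP2 were below 1 FPKM, while 5 of 8 renal tubule markers were at or above 1 FPKM in every library. The endothelial markers PECAM1, VWF and CDH5 were below 1 FPKM in every library of both lines.

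Promoter sequences were looked up to describe the list, which was chosen as genes of mitosis. Whether their motifs relate to the lower values after knockdown was not tested. The sequences were taken from the RefSeq promoter table of GRCh38.p14, which is not the build of the expression data. The table held a window of 250 bases upstream and 50 bases downstream of the start site for 37 of the 44 members. FOXM1, AURKA, TPX2, BIRC5, BUB3, TTK and UBE2C were not matched. Each window was searched on both strands for the CHR core (TTTGAA or TTCGAA) and for CCAAT, whose matches may overlap where CCAAT and its reverse complement ATTGG share bases. A CHR match was present in 27 of 37 members, or 73.0%, against 16.6% of all 27305 genes in the table and 10.4% of the 8521 tested genes that have a window. CCAAT was present in 29 members, or 78.4%, against 35.7% and 36.6%. Both motifs together were found in 23 members, or 62.2%, against 6.58% and 4.49%. Where several windows were listed for a gene, the first one was used. A match describes the letters of the window and is not a site of binding.

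The 130 bases upstream of the start site are shown for 6 members, with CHR and CCAAT matches on either strand in capitals. They were picked from members whose 130 bases held both motifs. This was so for 9 of the 23 members with a window and values printed by library. CDK1, CDC25C, MAD2L1, NDC80 and NUF2 held neither motif in these bases. PLK1 and CDC20 are shown as the 2 most highly expressed members that have a window. KIF23, HMMR and ECT2 are members that were lower with both siRNAs in 769-P, and KIF4A was the member higher with both siRNAs in DU145. The windows are chr16:23678759-23678888 for PLK1, chr1:43358851-43358980 for CDC20, chr15:69414219-69414348 for KIF23, chr5:163460502-163460631 for HMMR, chr3:172750596-172750725 for ECT2 and chrX:70289974-70290103 for KIF4A, all on the plus strand of GRCh38.p14.
PLK1: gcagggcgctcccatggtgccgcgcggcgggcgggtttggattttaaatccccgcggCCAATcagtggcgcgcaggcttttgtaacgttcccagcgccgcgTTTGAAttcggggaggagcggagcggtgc
CDC20: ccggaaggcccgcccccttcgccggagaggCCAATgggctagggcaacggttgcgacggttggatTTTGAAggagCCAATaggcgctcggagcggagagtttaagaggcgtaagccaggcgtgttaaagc
KIF23: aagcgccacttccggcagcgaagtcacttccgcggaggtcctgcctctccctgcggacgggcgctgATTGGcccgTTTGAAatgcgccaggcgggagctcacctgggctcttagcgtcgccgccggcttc
HMMR: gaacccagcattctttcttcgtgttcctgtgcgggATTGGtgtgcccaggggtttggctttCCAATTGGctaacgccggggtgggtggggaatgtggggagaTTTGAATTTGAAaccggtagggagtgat
ECT2: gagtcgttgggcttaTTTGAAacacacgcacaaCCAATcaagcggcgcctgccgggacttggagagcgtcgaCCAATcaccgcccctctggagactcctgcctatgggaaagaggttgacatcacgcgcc
KIF4A: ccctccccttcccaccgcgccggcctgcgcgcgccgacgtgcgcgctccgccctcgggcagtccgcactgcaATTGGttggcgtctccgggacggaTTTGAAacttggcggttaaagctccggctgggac
The CHR match began 29 bases upstream of the start site in PLK1, 65 in CDC20, 55 in KIF23, 34 in KIF4A and 115 in ECT2, and in HMMR 2 matches lay end to end from 28 bases upstream. Over the 27 members with a CHR match there were 36 matches, with a median first base of -27. The 61 CCAAT matches had a median first base of -69, and 42 of them lay wholly between 130 and 31 bases upstream. KIF4A carried both motifs as did KIF23, and their mean log2 changes in DU145 were 0.15 and -0.46. The median log2 change of members with a CHR match was -0.46 in DU145 and -0.56 in 769-P, and that of the 10 members without one was -0.39 and -0.52. Over the tested genes the corresponding medians were 0.03 and -0.11 for 890 genes with a CHR match, and 0.10 and -0.03 for 7631 genes without one. For CCAAT the order was the other way among members. The 29 members with a match had medians of -0.41 in DU145 and -0.55 in 769-P, and the 8 without one had -0.46 and -0.64. Over the tested genes the CCAAT medians were 0.09 and -0.04 both for 3116 genes with a match and for 5405 without. These medians are descriptions and were not tested.

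**Figure D1:**
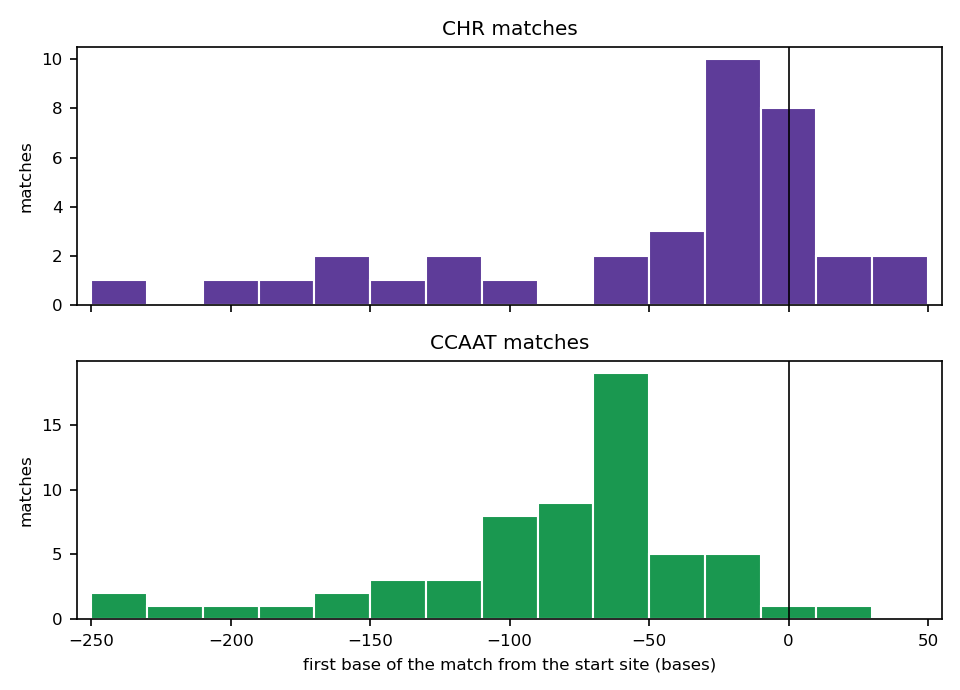
Number of matches (vertical axis) to the CHR core and to CCAAT in the promoter windows of 37 mitosis genes, by the distance in bases of the first base of the match from the start site, in bins of 20 bases. The 36 CHR matches have a median first base of -27 and the 61 CCAAT matches one of -69.

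The question of the experiment was how loss of SPOP, the substrate receptor of a CUL3 ubiquitin ligase, changes expression in a prostate and a kidney cancer line. In 769-P 37 of 44 mitosis genes, 84.1%, were lower than the control with both siRNAs, against 39.5% of all tested genes. In DU145 35 members, 79.5%, were, against 22.2% of all tested genes. KIF4A was the member higher with both siRNAs in DU145, and 0 members were in 769-P, where 43.5% and 31.5% of all tested genes were higher. The log2 changes of KIF4A in DU145 were 0.17 and 0.14, about the size of their standard errors from counting, 0.17 for each. In all 4 siRNA libraries 30 members, 68.2%, lay below their control, against 13.6% of tested genes. The siRNA libraries of a line share 1 control, so a deviation of that control would move both comparisons of the line, and no second control was there to check it.

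Changes were calculated on the log2(FPKM + 1) scale, which understates those of genes with low values. The median change of the members was -0.65 with siRNA 1 and -0.22 with siRNA 2 in DU145, where all tested genes had medians of 0.07 and 0.12. It was -0.45 and -0.57 in 769-P, where all tested genes had medians of 0.00 and -0.06. Averaged over the siRNAs, the median change was -0.40 in DU145 and -0.52 in 769-P. In DU145 siRNA 1 put 41 members below the control and siRNA 2 put 37. In 769-P 37 members were below it with siRNA 1 and all 44 with siRNA 2. The plot of cumulative shares sets these distributions side by side.

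**Figure D2:**
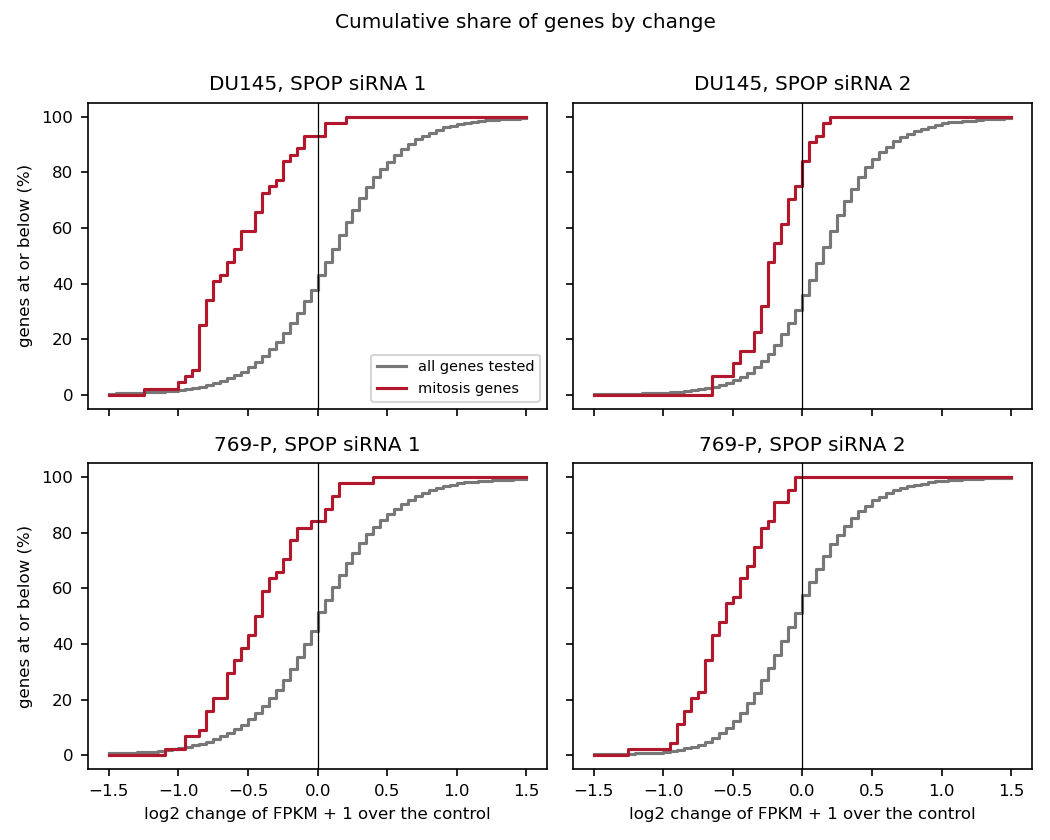
Cumulative share of genes (vertical axis, percent) at or below a given log2 change of FPKM + 1 over the control (horizontal axis) in each of the 4 SPOP siRNA libraries, in red for the 44 mitosis genes and in grey for the 11865 tested genes. The red curve lies to the left of the grey one near the middle of each panel, and the distance is smallest for DU145 siRNA 2, where the medians are -0.22 and 0.12.

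A gene was called when each siRNA of a line changed it at least 1.5-fold and both in 1 direction. This is a description by size and not a test. In 769-P 13 members, 29.5%, were called lower, against 3.73% of tested genes, and 0 were called higher, against 3.6%. The 13 were CDK1, CCNA2, AURKA, NEK2, BUB1, MAD2L1, NDC80, NUF2, KIF23, HMMR, TOP2A, ECT2 and ANLN. In DU145 3 members, 6.82%, were called lower, CDC25C, PTTG1 and SPC25, against 1.19% of tested genes, and 0 were called higher, against 4.72%. The lists of the 2 lines had no member in common, and 0.270% of tested genes were called lower in both. At 2-fold 0 members were called in either line or direction, where 0.329% of tested genes were lower and 0.666% higher in DU145, and 0.565% were lower and 0.657% higher in 769-P.

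The counts rest on single libraries. In DU145 24 members were at least 1.5-fold lower with siRNA 1 alone, against 7.42% of tested genes, and 3 with siRNA 2 alone, against 3.73%. In 769-P 15 were with siRNA 1 alone, against 9.84%, and 21 with siRNA 2 alone, against 8.37%. When the changes of each library were centred on the median of all tested genes, which lies 0.12 above 0 for DU145 siRNA 2, 7 members were called lower in DU145 and 12 in 769-P. The same centring called 2.04% of tested genes lower in DU145 and 3.17% in 769-P. The siRNA 1 library was below the siRNA 2 library for 37 members in DU145, 84.1%, against 55.1% of tested genes, and for 11 members in 769-P, 25.0%, against 40.4%. The median difference between siRNA 1 and siRNA 2 was -0.44 over the members and -0.05 over all tested genes in DU145, and 0.12 and 0.07 in 769-P. Subtraction of the mean olfactory receptor value from each library left 3 members called lower in DU145 and 14 in 769-P. After it 0.751% of tested genes were called lower in DU145 and 4.53% in 769-P.

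**Figure D3:**
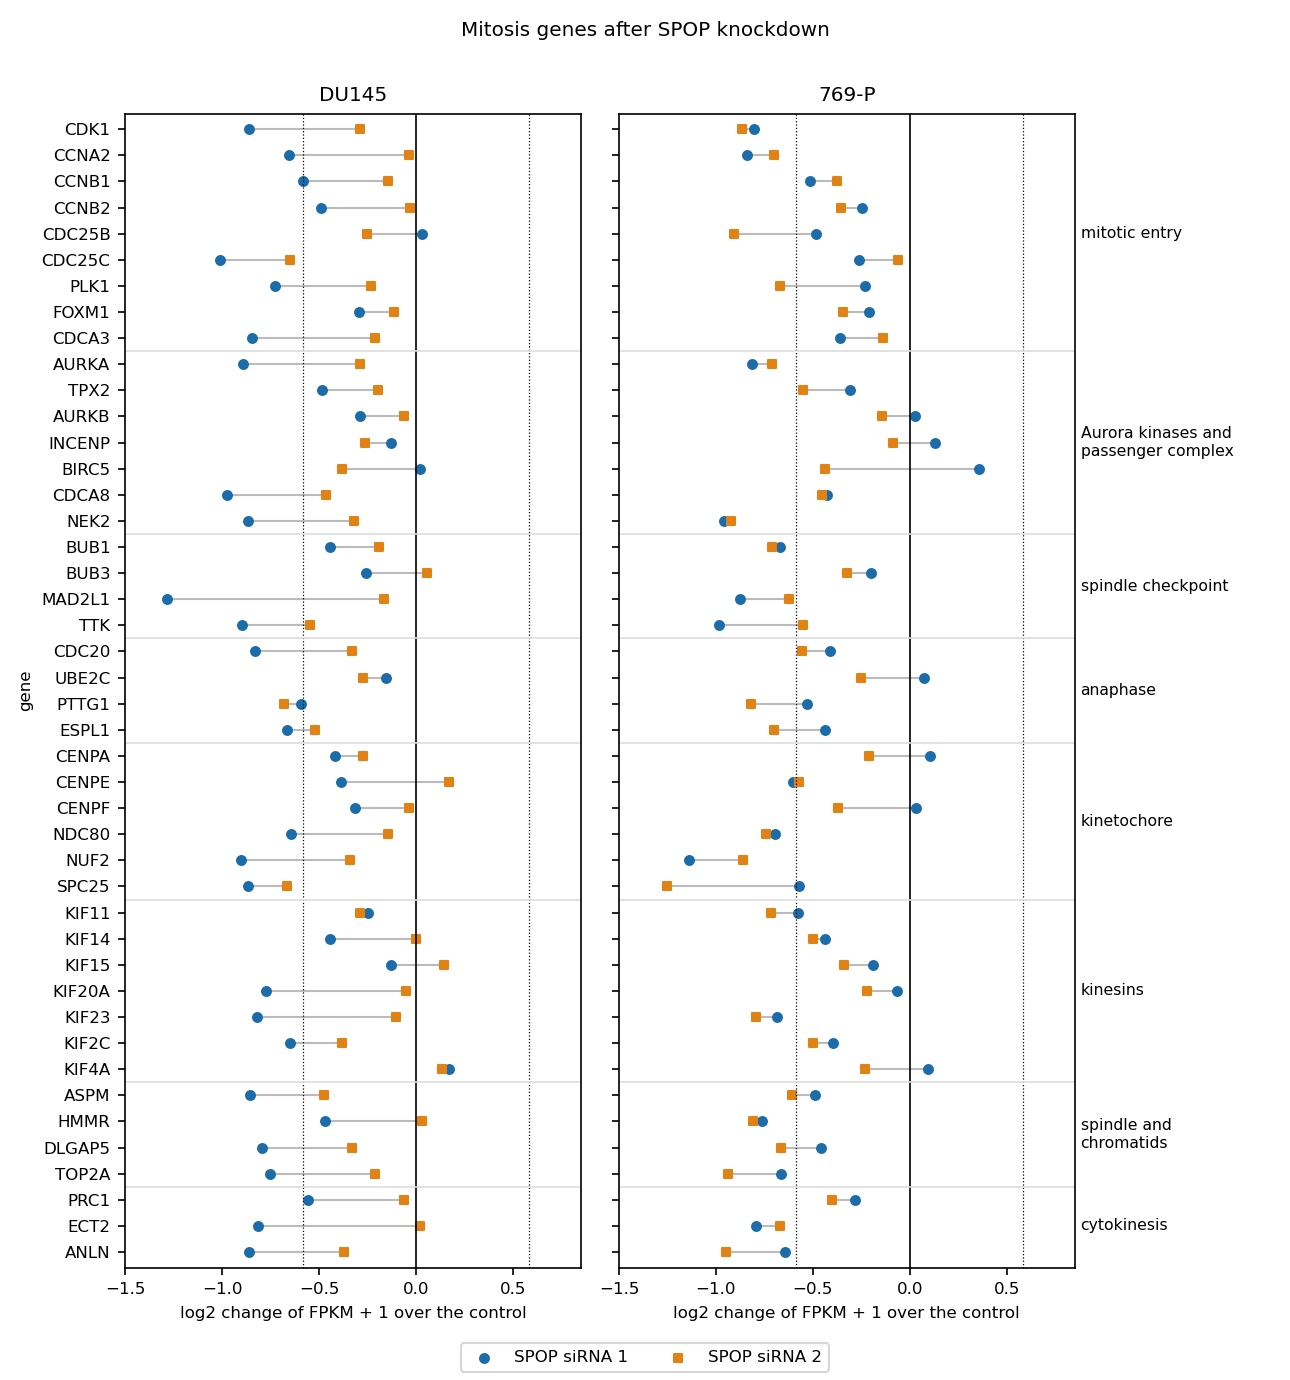
Change of each of the 44 mitosis genes (rows, grouped by role) over the control of its line on the log2(FPKM + 1) scale (horizontal axis), with SPOP siRNA 1 as circles and SPOP siRNA 2 as squares. Dotted lines mark 1.5-fold; with both siRNAs 13 genes lie beyond the lower line in 769-P and 3 in DU145, and 0 lie beyond the upper line in either line.

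No member passed an adjusted p of 0.05 for the knockdown with limma, which was fitted on log2(FPKM + 1) over the 11865 tested genes with Benjamini-Hochberg adjustment. In DU145 0 of 44 members passed, where 0.135% of tested genes did. An unadjusted limma p under 0.05 was found for 3 of 44 members, CDC25C, PTTG1 and CDCA8, all of them lower. It was found for 744 of the 11865 tested genes, 132 of them lower. The lowest adjusted p of a member was 0.786, for CDC25C. In 769-P 0 members passed, where 0.101% of tested genes did, and the lowest adjusted p of a member was 0.693. There 11 of 44 members had an unadjusted limma p under 0.05, all of them lower. Of the 11865 tested genes 827 did, 400 of them lower. The fit has 2 residual degrees of freedom, both from the siRNA pairs, and takes the single controls to vary like them. SPOP itself had an adjusted p of 0.134 in DU145 and of 0.0948 in 769-P from the same limma fit. The difference between the lines in the knockdown change was past the threshold for 0 members, where 0.169% of tested genes passed. For this difference 0 members had an unadjusted limma p under 0.05, and 325 of the 11865 tested genes did. The mean changes of the members in the 2 lines had a Pearson r of 0.50 and a Spearman rho of 0.51 across 44 genes, and across all tested genes Pearson's r was 0.35. These are descriptions, because genes of one library share its depth and control.

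The 9 genes of mitotic entry were lower with both siRNAs for 9 genes in 769-P and for 8 in DU145, with median changes of -0.45 and -0.36. CDK1, the kinase that triggers mitosis (chr10:62538089-62554610 in GRCh37), had 43.7, 24.6 and 23.5 FPKM in 769-P and 40.8, 22.0 and 33.2 FPKM in DU145. Both lines thus started near the same level, and the siRNA 2 library of DU145 stayed closest to its control. The log2 change of CDK1 was -0.84 (standard error, SE, 0.30, limma adjusted p = 0.693) in 769-P and -0.57 (SE 0.30, limma adjusted p = 0.815) in DU145. CCNA2, cyclin A2, had 45.3, 24.9 and 27.5 FPKM in 769-P and 24.2, 15.0 and 23.6 FPKM in DU145. Its siRNA 2 value in DU145 was 97.5% of the control. CCNB1, cyclin B1, had 82.2, 57.2 and 63.1 FPKM in 769-P and 65.9, 43.7 and 59.6 FPKM in DU145. Its changes lay between -0.58 and -0.14 and stayed inside 1.5-fold on the log2(FPKM + 1) scale in all 4 siRNA libraries, with DU145 siRNA 1 at the edge, where 66.4% of the control was left. CCNB2, cyclin B2, had log2 changes of -0.49 to -0.03.

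CDC25C, a phosphatase that activates CDK1, had the lowest mean change of the list in DU145, with 6.59, 2.76 and 3.84 FPKM there and 3.30, 2.59 and 3.11 FPKM in 769-P. The DU145 control thus stood apart from the other 5 libraries, which lay between 2.59 and 3.84 FPKM, and the log2 change was -0.83 in DU145 (SE 0.28, limma adjusted p = 0.786) and -0.16 in 769-P. CDC25C rested on an estimated 16 to 64 fragments in DU145, and with a mean of 3.70 FPKM it is lost to a filter of 5 FPKM. CDC25B, a phosphatase of the same family, had log2 changes of 0.03 and -0.25 with siRNA 1 and siRNA 2 in DU145, and of -0.48 and -0.91 in 769-P. PLK1, a kinase of entry and spindle assembly and one of the 3 most highly expressed members, had 122, 103.6 and 76.2 FPKM in 769-P and 93.5, 56.1 and 79.4 FPKM in DU145. The siRNA with the lower PLK1 value was thus siRNA 2 in 769-P and siRNA 1 in DU145. FOXM1, a transcription factor that drives many of these genes, had 59.2, 50.9 and 46.3 FPKM in 769-P and 54.1, 44.1 and 50.03 FPKM in DU145. It was below the control in all 4 siRNA libraries, by between -0.35 and -0.11. CDCA3, which is needed for mitotic entry, had log2 changes of -0.85 and -0.21 in DU145 and of -0.36 and -0.14 in 769-P.

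Of the 7 genes grouped as Aurora kinases and passenger complex, with TPX2 and NEK2 added, 2 were called lower in 769-P, AURKA and NEK2, and 0 in DU145. AURKA, the centrosomal Aurora kinase (chr20:54944445-54967393 in GRCh37), had 46.6, 26.1 and 28.0 FPKM in 769-P and 48.2, 25.5 and 39.3 FPKM in DU145. NEK2, a kinase that separates the centrosomes, had 17.5, 8.53 and 8.77 FPKM in 769-P and 15.9, 8.28 and 12.5 FPKM in DU145. Its log2 change in 769-P was -0.94 (SE 0.30, limma adjusted p = 0.693), and the siRNAs differed by 0.04. TPX2, the activator of AURKA, had log2 changes between -0.55 and -0.20 in the 4 siRNA libraries.

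Of the 4 subunits of the chromosomal passenger complex, CDCA8 was lower with both siRNAs in 769-P, and CDCA8, INCENP and AURKB were in DU145. INCENP, its scaffold, had 13.0, 14.3 and 12.2 FPKM in 769-P and 19.4, 17.7 and 16.1 FPKM in DU145. Its log2 change of 0.13 with siRNA 1 in 769-P equalled the standard error from counting, 0.13. BIRC5, survivin, had 38.2, 49.2 and 28.0 FPKM in 769-P and 48.9, 49.7 and 37.4 FPKM in DU145. With siRNA 1 BIRC5 was above the control in both lines and with siRNA 2 it was below it in both, so that its mean change in 769-P was -0.04 with a standard error of 0.39. AURKB, the catalytic subunit, had log2 changes of 0.02 and -0.14 in 769-P and of -0.29 and -0.06 in DU145. CDCA8, borealin, was below the control in all 4 siRNA libraries, with log2 changes of -0.98 and -0.46 in DU145 and of -0.43 and -0.45 in 769-P. The mean changes of the 4 subunits ran from -0.44 to 0.02 in 769-P and from -0.72 to -0.18 in DU145.

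Of the 4 measured spindle checkpoint genes, BUB1 and MAD2L1 were called lower in 769-P and 0 in DU145, and the median change of the group was -0.72 in 769-P and -0.52 in DU145. BUB1, a checkpoint kinase at the kinetochore, had 23.4, 14.4 and 13.9 FPKM in 769-P and 20.5, 14.9 and 17.9 FPKM in DU145. MAD2L1, the checkpoint protein that binds CDC20, had 38.7, 20.6 and 24.7 FPKM in 769-P. In DU145 it had 23.6, 9.11 and 20.9 FPKM, so that siRNA 1 left 38.6% of the control and siRNA 2 left 88.7%. This was the lowest single change of any member with DU145 siRNA 1, at -1.28. TTK, the kinase MPS1 at the top of the checkpoint, had log2 changes of -0.98 and -0.55 in 769-P and of -0.90 and -0.55 in DU145, and siRNA 2 left 66.0% and 65.5% of the control. On the log2(FPKM + 1) scale used for the calls, siRNA 2 was just inside 1.5-fold in both lines. BUB3, which anchors BUB1 at the kinetochore and is expressed throughout the cell cycle, had 73.3, 63.7 and 58.4 FPKM in 769-P and 97.9, 81.7 and 102 FPKM in DU145. Its changes lay between -0.32 and 0.06.

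The 4 anaphase genes included the member with the highest level. CDC20, the checkpoint target that activates the anaphase promoting complex (chr1:43824652-43828874 in GRCh37), had a mean of 148 FPKM over the 6 libraries. It had 193, 145 and 131 FPKM in 769-P and 177, 99.2 and 141 FPKM in DU145, below the control in all 4 siRNA libraries. UBE2C, the ubiquitin conjugating enzyme of that complex and the second in level, had 122, 129 and 102 FPKM in 769-P and 132, 119 and 109 FPKM in DU145. In 769-P its siRNA libraries lay on either side of the control. PTTG1, securin, the inhibitor of separase, had 76.2, 50.2 and 47.1 FPKM in DU145 and 78.7, 54.2 and 44.1 FPKM in 769-P. Controls and siRNA libraries did not overlap in either line, and the siRNAs of DU145 differed by 0.09 on the log2 scale. The log2 change of PTTG1 was -0.64 (SE 0.23, limma adjusted p = 0.786) in DU145 and -0.68 (SE 0.23, limma adjusted p = 0.693) in 769-P, where siRNA 1, at -0.53, kept it from being called. ESPL1, separase, had log2 changes of -0.67 and -0.52 in DU145 and of -0.44 and -0.70 in 769-P.

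**Figure D4:**
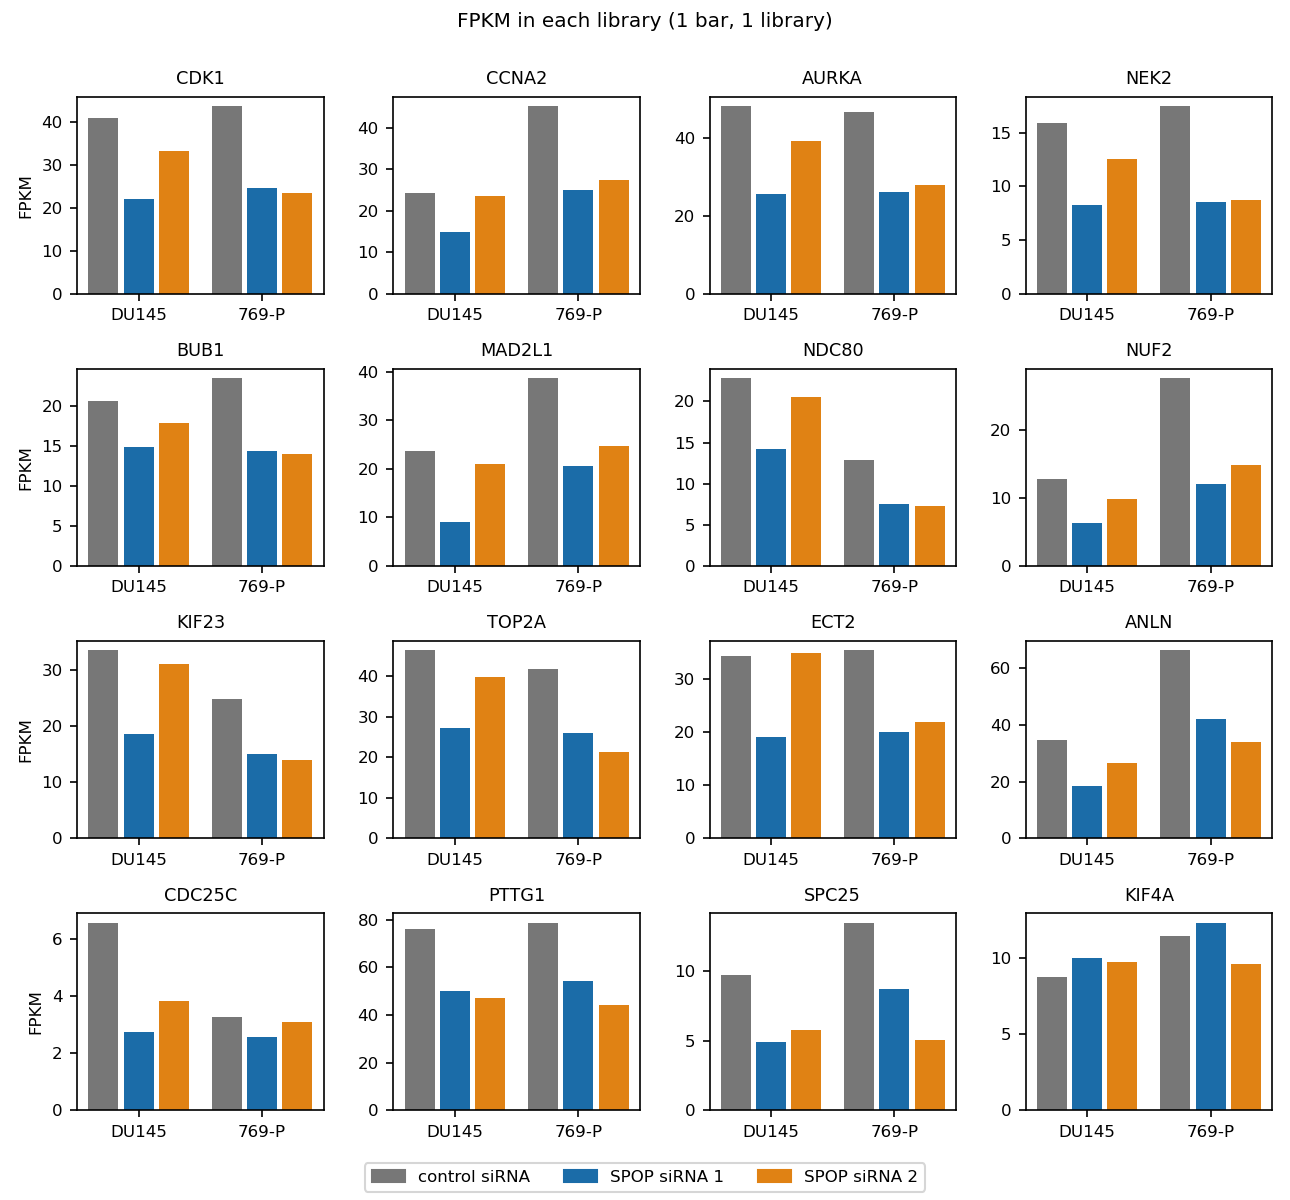
FPKM (vertical axis, from 0, with its own scale in each panel) of 16 mitosis genes in each library of DU145 and 769-P, with 1 bar for each library and no error bars, since each bar is a single library. The panels hold 12 of the 13 genes called lower at 1.5-fold in 769-P, the 3 called lower in DU145 (CDC25C, PTTG1 and SPC25) and KIF4A; for CDK1 in 769-P the bars are 43.7, 24.6 and 23.5.

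Of the 6 kinetochore genes, NDC80 and NUF2 were called lower in 769-P and SPC25 in DU145. NDC80, NUF2 and SPC25 are subunits of the NDC80 complex, which holds microtubule ends. NUF2 (chr1:163236366-163325554 in GRCh37) had 27.7, 12.0 and 14.8 FPKM in 769-P and 12.8, 6.39 and 9.91 FPKM in DU145. Its mean change of -0.998 (SE 0.32, limma adjusted p = 0.693) in 769-P was the lowest of all members in that line. NDC80 had 12.8, 7.55 and 7.28 FPKM in 769-P and 22.8, 14.2 and 20.5 FPKM in DU145. SPC25 had 13.5, 8.72 and 5.07 FPKM in 769-P and 9.72, 4.89 and 5.76 FPKM in DU145. The 3 subunits were below the control in every siRNA library of both lines. SPC25 was called in DU145 and narrowly not in 769-P, where siRNA 1 left 64.8% of the control and gave -0.57 on the log2(FPKM + 1) scale and siRNA 2 gave -1.25, the lowest value of any member with that siRNA.

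CENPA, the histone H3 variant that marks the centromere, had 22.7, 16.8 and 18.6 FPKM in DU145 and 9.56, 10.4 and 8.13 FPKM in 769-P. Its mean change in 769-P was -0.05. CENPF, a large protein of the outer kinetochore, had log2 changes of 0.03 and -0.37 in 769-P and of -0.31 and -0.04 in DU145. CENPE, a kinetochore motor, had log2 changes of -0.60 and -0.57 in 769-P and of -0.39 and 0.17 in DU145. The added 1 FPKM makes the log2 change of a gene this low smaller, and in 769-P the siRNAs left 57.0% and 58.9% of its control. In 769-P the mean changes of the kinetochore genes thus ran from -0.998 for NUF2 to -0.05 for CENPA.

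Among the 7 kinesins 1 was called lower in 769-P and 0 in DU145, and their median change was -0.45 in 769-P and -0.27 in DU145. KIF23, the motor of the central spindle, had 24.9, 15.1 and 14.0 FPKM in 769-P and 33.6, 18.6 and 31.2 FPKM in DU145. KIF11, the motor that pushes spindle poles apart, had log2 changes of -0.58 and -0.72 in 769-P, just short of a call on the log2(FPKM + 1) scale, and of -0.25 and -0.29 in DU145. KIF4A, a chromosome-bound motor (chrX:69509954-69640736 in GRCh37), had 8.75, 9.99 and 9.72 FPKM in DU145 and 11.5, 12.3 and 9.63 FPKM in 769-P. Its changes lay between -0.23 and 0.17 in the 4 siRNA libraries. With changes centred on the median of all tested genes, its mean change in DU145 was 0.06. KIF15, a motor that backs up KIF11, had the lowest level of the list, with 2.34, 2.05 and 2.70 FPKM in DU145 and 2.15, 1.76 and 1.49 FPKM in 769-P. KIF14, KIF20A and KIF2C had log2 changes between -0.78 and 0.00.

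Of the 4 genes of the spindle and the chromatids, HMMR and TOP2A were called lower in 769-P and 0 in DU145. TOP2A, the topoisomerase that untangles sister chromatids (chr17:38544777-38574148 in GRCh37), had 41.6, 25.9 and 21.2 FPKM in 769-P and 46.3, 27.1 and 39.8 FPKM in DU145. HMMR, a spindle assembly factor, had 16.4, 9.23 and 8.92 FPKM in 769-P and 9.08, 6.28 and 9.32 FPKM in DU145. In 769-P the siRNAs left 56.4% and 54.5% of HMMR, and in DU145 they left 69.1% and 103%. DLGAP5, which stabilizes kinetochore microtubules, had 11.3, 7.98 and 6.78 FPKM in 769-P and 21.0, 11.7 and 16.5 FPKM in DU145. ASPM, a spindle pole protein, had log2 changes of -0.86 and -0.47 in DU145 and of -0.49 and -0.61 in 769-P.

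Of the 3 cytokinesis genes, ECT2 and ANLN were called lower in 769-P and 0 in DU145. ECT2, which activates RhoA at the division site, had 35.4, 19.97 and 21.9 FPKM in 769-P and 34.4, 19.1 and 34.9 FPKM in DU145. With siRNA 1 it was 55.6% of the control in DU145 and 56.4% in 769-P, and with siRNA 2 it was 101% and 61.8%. ANLN, anillin, the scaffold of the contractile ring, had 66.4, 42.1 and 33.9 FPKM in 769-P and 34.6, 18.6 and 26.5 FPKM in DU145. Its control was above both siRNA libraries in each line. PRC1, which bundles the midzone microtubules, had log2 changes between -0.56 and -0.06 in the 4 siRNA libraries.

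The levels of the members were close in the 2 lines. Across the 44 members the log2 levels of the 2 controls had a Pearson r of 0.92, against 0.80 across all tested genes, and the median absolute difference between the controls was 0.35 for the members and 0.55 for all tested genes. In the limma comparison of DU145 with 769-P, averaged over control and knockdown, 3 members were higher in DU145 at an adjusted p under 0.05, 6.82%, against 26.8% of tested genes, and 2 were lower, 4.55%, against 15.3%. CENPA was higher by 1.02 (SE 0.18, limma adjusted p = 0.00827), NDC80 by 0.95 (SE 0.20, limma adjusted p = 0.0161) and DLGAP5 by 0.84 (SE 0.21, limma adjusted p = 0.0247). NUF2 was lower in DU145 by a log2 difference of -0.87 (SE 0.23, limma adjusted p = 0.0299) and ANLN by -0.83 (SE 0.21, limma adjusted p = 0.0259). NDC80 and NUF2, partners in 1 complex, thus differed between the lines in opposite directions. The 5 calls depended on single libraries. Without 769-P siRNA 1 there was 1 call, where 23.3% of tested genes passed in either direction, and without 769-P siRNA 2 there were 0, where 23.6% did. With a replicate block for the siRNA number there were 13, where 50.4% of tested genes passed, against 42.1% in the fit as reported. By the values alone, all 3 DU145 libraries lay above all 3 769-P libraries for 6 members, 13.6%, against 35.1% of tested genes, namely INCENP, BUB3, CENPA, NDC80, KIF20A and DLGAP5. They lay below for 3 members, CCNA2, AURKB and CENPF, 6.82%, against 21.2% of tested genes.

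**Figure D5:**
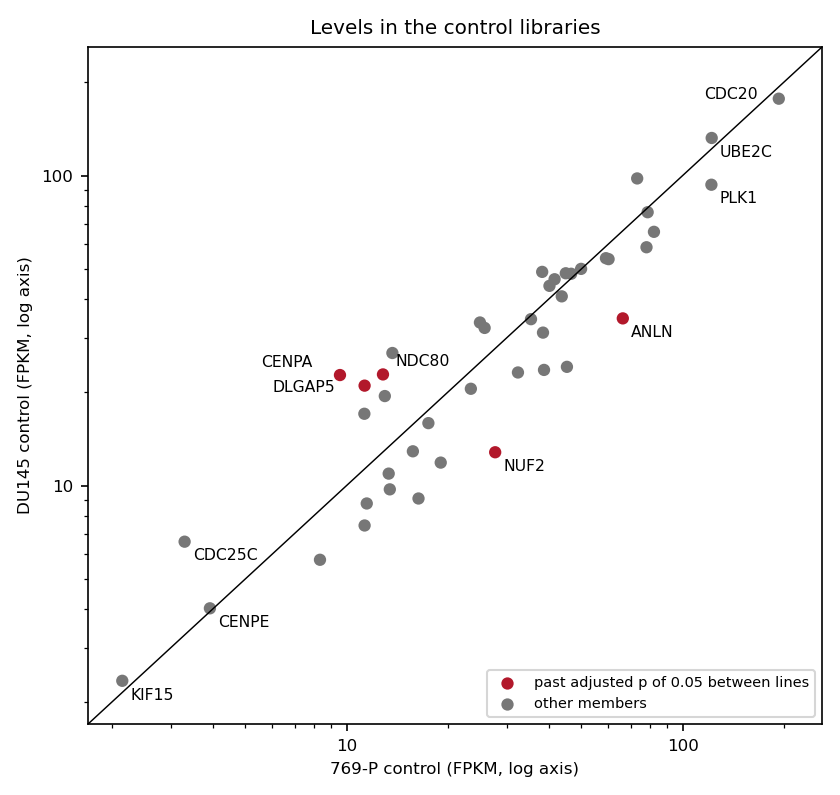
FPKM of each of the 44 mitosis genes in the 769-P control (horizontal log axis) and in the DU145 control (vertical log axis), 1 library each, with the line of equal values. The levels run from about 2 FPKM for KIF15 to 193 and 177 FPKM for CDC20, and the 5 genes in red differed between the lines at an adjusted p under 0.05 from limma.

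The order of the members by mean FPKM ran from CDC20 (148), UBE2C (119) and PLK1 (88.4) down to CDC25C (3.70), CENPE (3.33) and KIF15 (2.08), with a median of 22.9. The levels of CDC20 and UBE2C overlapped between libraries, as did those of CDC25C and CENPE. The values are per length of transcript, but the transcript behind each value is not known, so the order between genes is approximate.

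The other genes of mitosis were examined as a list of 111 tested genes, which held the anaphase promoting complex, condensin, cohesin, further kinetochore and spindle proteins, entry regulators and the MuvB complex. In 769-P 10 were called lower at 1.5-fold, 9.01%, against 3.73% of tested genes, and 0 higher, against 3.6%, and 78 were lower than the control with both siRNAs, 70.3%, against 39.5%. In DU145 3 were called lower, 2.7%, against 1.19% of tested genes, and 3 higher, also 2.7%, against 4.72%, and 56 were lower with both siRNAs, 50.5%, against 22.2%. The median mean change was -0.39 in 769-P and -0.16 in DU145, in each line nearer to 0 than that of the 44 members. Of 37 replication genes, 3 were called lower in 769-P, RFC3, GINS1 and PRIM1, 8.11%, against 3.73% of tested genes, and 0 in DU145, against 1.19%, with median changes of -0.34 and -0.14. Lower than the control with both siRNAs were 31 replication genes in 769-P, 83.8%, and 20 in DU145, 54.1%. In 769-P this share was near the 84.1% of the 44 members, and in DU145 it was below their 79.5%.

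PBK, a mitotic kinase, was called lower in both lines, with 21.9, 8.58 and 9.50 FPKM in 769-P and 17.2, 9.31 and 10.9 FPKM in DU145. SGOL2, shugoshin 2, which protects centromeric cohesin, had 5.20, 2.02 and 2.27 FPKM in 769-P and 4.15, 2.24 and 4.07 FPKM in DU145. SMC4, a core condensin subunit, had 29.4, 15.3 and 14.5 FPKM in 769-P and 31.3, 21.1 and 27.3 FPKM in DU145. The 8 condensin genes were lower with both siRNAs for all 8 in 769-P and for 5 in DU145. MASTL, the kinase that restrains the phosphatase PP2A in mitosis, had 13.2, 6.95 and 7.69 FPKM in 769-P and 6.11, 3.13 and 4.72 FPKM in DU145. DEPDC1, a mitotic protein, had 9.81, 4.20 and 5.75 FPKM in 769-P and 7.84, 4.78 and 6.51 FPKM in DU145. Of the genes called lower in DU145, KIF18B, a motor at microtubule ends, had 31.5, 19.6 and 20.4 FPKM in DU145 and 20.6, 12.7 and 14.0 FPKM in 769-P. CENPK, an inner kinetochore protein, had 7.98, 4.72 and 4.77 FPKM in DU145 and 6.98, 5.84 and 4.32 FPKM in 769-P.

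The 3 genes called higher in DU145 included 2 further kinetochore genes. SKA2, part of the complex that couples kinetochores to microtubules, had 9.91, 20.9 and 16.5 FPKM in DU145 and 11.02, 13.7 and 10.2 FPKM in 769-P. ZW10, a subunit of the RZZ complex that recruits dynein to kinetochores, had 5.10, 8.75 and 9.57 FPKM in DU145 and 3.45, 7.04 and 4.99 FPKM in 769-P, above the control in all 4 siRNA libraries. ANAPC15, a subunit of the anaphase promoting complex, had 26.9, 45.8 and 43.2 FPKM in DU145 and 19.4, 22.6 and 25.6 FPKM in 769-P. The 17 genes listed with that complex, FZR1, UBE2S and FBXO5 among them, had a median change of 0.08 in DU145 and -0.10 in 769-P. The medians of the 9 MuvB and B-MYB genes were 0.10 and -0.15. Over all tested genes the medians were 0.09 and -0.03, so in DU145 both groups lay near the median of all tested genes. CCNE1, cyclin E1, the cyclin of S phase entry that the study examined as a SPOP substrate, had 8.62, 13.1 and 5.77 FPKM in DU145 and 7.76, 15.0 and 9.11 FPKM in 769-P. Its transcript was thus above the control with siRNA 1 in both lines, by 0.55 and 0.87, and the siRNA libraries of DU145 lay on either side of the control. Averaged over the siRNAs, its log2 change was 0.02 in DU145 (SE 0.52, limma adjusted p = 0.998). In 769-P it was 0.54 (SE 0.52, limma adjusted p = 0.822). By quantitative RT-PCR the paper reports CCNE1 mRNA as unaffected by the knockdown in both lines.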

How the data were processed

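RNA-Seq reads of 6 libraries had been mapped by the authors to hg19 with TopHat2 after FastQC and cutadapt (per the submitters' processing notes), and the authors deposited 1 FPKM value per gene and library, which the study's methods attribute to Cufflinks. Annotation and tool versions were not given in the sources used here. The study's methods give 2 biological replicates per sample and 1 library kit, whereas the labels give a single library and another kit. The siRNA libraries of a line were taken as its replicates, and p-values then measure the spread between siRNAs, which may be technical.

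Repeated symbols were added up, and log2(FPKM + 1) was taken. Genes averaging 1 FPKM or more were tested with limma 3.58.1 (R 4.3.3), as 4 groups with eBayes on the mean trend and Benjamini-Hochberg adjustment. Tested on simulated data, the fit recovered changed genes where genes of a level shared 1 spread, and recovered none where each gene had its own. FPKM holds no counts, so no count test was run. Python 3.11.15, pandas 2.3.3, numpy 2.4.6 and matplotlib 3.10.9 were used, with gene positions from GENCODE v44lift37.

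The members and gene lists were chosen with earlier results of these data known. Values by library are printed for members called at 1.5-fold, past an adjusted p of 0.05, among the 3 highest levels or among the 3 largest changes up and down in each line, for CDK1, CCNB1, PLK1, AURKA, CDC20, FOXM1 and TOP2A by role, and for up to 5 called genes of the other mitosis list per line and direction, with SPOP and CCNE1. Alternatives were a pseudocount of 0.1, a filter at 5 FPKM or none, quantile normalization, median-centred changes, a replicate block, no trend, subtraction of background, other ways to combine the siRNAs and leaving out each siRNA library. 1 marker gene of the lists is not reported here.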

Additional observations from a re-analysis of the deposited data

How the results depend on the processing

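The members' median change stayed below 0 in both lines under every alternative tried, between -0.65 and -0.22 in DU145 and between -0.57 and -0.45 in 769-P, the ends being those with 1 siRNA library left out. The count called lower at 1.5-fold in DU145 was 7 with median-centred changes and 12 when the mean of the siRNAs had to pass, where 2.04% and 3.14% of tested genes were called, against 1.19% as reported. It ran from 3 without siRNA 1 to 24 without siRNA 2, with 3.73% and 7.42% of tested genes called. In 769-P it ran from 15 without siRNA 2 to 21 without siRNA 1, with 9.84% and 8.37% called, against 3.73% as reported. At 2-fold it ran from 0 to 2 in DU145, and in 769-P it was 1 with either library left out, where 0.801% to 2.5% of tested genes were called. The cause was not tested, except that a count from 1 library has fewer conditions to meet. For the knockdown contrasts and the difference between lines, limma called 0 members under each alternative. SPOP, the targeted gene, did not pass for the knockdown in the reported fit either. Counts of 0 therefore cannot show that the members were unchanged or changed alike in both lines. The line comparison called 1 member with no filter and 12 with quantile normalization, where 18.6% and 44.8% of genes passed, against 42.1% as reported, and 0 to 6 without 1 siRNA library, where 23.3% to 32.8% passed. The siRNA numbers are shared by the lines and are no proof of pairing, and with a replicate block 13 members passed there, with 50.4% of tested genes. The difference between siRNA 2 and siRNA 1 had a Pearson r of 0.27 between the lines across 11865 genes and of 0.63 across the 44 members, as a description of genes that share libraries. The median difference between the lines was 0.0185 in the fit and -0.111 between the 2 control libraries alone, which reverses its sign. The controls are single and could not be left out. Depth limits the members of low level most, such as CDC25C, SPC25 and KIF15.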
